A study of Mus musculus with 7 samples.

Results

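The integrin loci of CD4+ T cells were examined in an ATAC-seq experiment, in which a transposase inserts adapters into open chromatin, so that insertions per region measure accessibility. The 8 genes were Itgb1, Itgb7 and Itgb2, which encode β chains, and Itga1, Itga4, Itgae, Itgal and Itgav, which encode α chains. Every region of the deposited table that overlapped a gene body with 10 kb on each side was taken, which gave 166 of 113820 regions, and no region was left out for a low value. The count per locus was 24 at Itgb1, 11 at Itgb7, 25 at Itgb2, 26 at Itga1, 19 at Itga4, 15 at Itgae, 25 at Itgal and 21 at Itgav.

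C57BL/6 reporter mice were infected with 500 L3 larvae of N. brasiliensis, and CD4+ T cells were sorted 8 days later, at 50000 cells per library. The 3 populations were GFP+ cells of IL-4-4get mice from the mediastinal lymph node (LN IL-4+, n = 2 libraries), GFP+ cells of the same reporter from the lung (lung IL-4+, n = 3), and YFP+ cells of IFN-gamma-Great mice from the lung (lung IFN-gamma+, n = 2). All 7 libraries came from infected animals, and the replicates of a population were different mice studied in 1 experiment. Which library came from which mouse is not given, and p-values measure the spread between libraries within that experiment. The 4get reporter marks cells that transcribe the IL-4 gene, whether or not they secrete the cytokine. The sort kept CD3ε+ CD4+ cells and left out cells with CD11b, CD11c, CD8, B220, NK1.1 or Ter119 on their surface. Tissue and reporter differ together between LN IL-4+ and lung IFN-gamma+ cells and cannot be told apart there.

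Integrins are receptors made of 1 α and 1 β chain that hold cells to matrix and to other cells, and T cells change the set they carry as they leave lymph nodes and enter tissue. The β1 chain pairs with α1 in a collagen receptor and with α4 in a receptor for VCAM-1. The β7 chain pairs with α4 in the gut-homing receptor for MAdCAM-1 and with αE, also called CD103, in a receptor for E-cadherin. The β2 chain pairs with αL in LFA-1, the receptor for ICAM-1, and αV pairs with several β chains in receptors for RGD-bearing matrix proteins that can also activate latent TGF-β.

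Values are log2 densities, that is, log2 of normalized insertions per kb of region, and a locus sum adds the normalized insertions of all regions at a gene. Rebuilt depth was between 14005923 and 91681969 insertions per library. The libraries fell into 2 classes by how widely insertions were spread over regions: both lung IFN-gamma+ libraries, replicate 1 of lung IL-4+ and replicate 2 of LN IL-4+ had log2 quartile ratios of 2.91 to 3.09 (wide), and the other 3 libraries 1.67 to 1.75 (narrow). Since no lung IFN-gamma+ library is narrow, differences within the wide class are given beside those of all libraries for the called regions and some loci. The 5 T cell markers Cd3e, Cd3g, Cd4, Cd5 and Lck each had a promoter region, with densities of 12.2 to 27.9 over all libraries.

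A region was called where the fold change was at least 3 and the p from limma, after Benjamini-Hochberg adjustment over all regions, was under 0.05. Of the 8 loci, Itga1 had the most called regions. It encodes the collagen-binding α1 chain. Its summed accessibility was 1.90-fold higher in lung IFN-gamma+ than in LN IL-4+ cells, and 6 of its 26 regions were called higher. At Itga4, 2 neighbouring intronic regions rose, and at Itgb2 a distal upstream region rose, in the same comparison. The loci of Itgb1, Itgb7, Itgae, Itgal and Itgav had no region called higher in any comparison. Between lung IL-4+ and LN IL-4+ cells, 1 region at Itga1 rose and 1 beyond the end of Itgb1 fell, and between the lung populations 1 region at Itga1 was lower in IL-4+ cells. In sorted bulk cells, a larger share of cells with an open region and more insertions per cell cannot be told apart.

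In lung IFN-gamma+ against LN IL-4+ cells, 9 of 166 integrin regions (5.42%) were called higher, against 2.17% of all regions, and 0 were called lower by limma, against 0.862%. With limma's p left unadjusted at the same cut-offs, 11 were higher and 8 lower, and voom on rebuilt counts called 13 higher and 1 lower. Of all 113820 regions, 8323 passed unadjusted in either direction, and voom called 3656 higher and 2239 lower. In lung IL-4+ against LN IL-4+ cells, 1 region (0.602%) was called higher and 1 lower, against 1.05% and 0.695% of all regions, so these shares were no larger than the background. With voom on rebuilt counts both were 0, and with limma's unadjusted p they were 3 and 2. Of all regions, voom called 979 higher and 876 lower here, and 4563 passed unadjusted in either direction. In lung IL-4+ against lung IFN-gamma+ cells, 0 were called higher by limma and 1 (0.602%) lower, against 0.108% and 0.387%. With the p left unadjusted, 2 were higher and 6 lower there, and voom called 0 and 4. Of all regions, 3827 passed unadjusted in that comparison, and voom called 252 higher and 840 lower. Most of the 9 calls were lost without either lung IFN-gamma+ library. Those fits leave 1 library in that population, and calls fell among all regions too, so the loss is not particular to integrin regions. With the replicate number as a replicate block, 3 of the 9 were called. Of all regions, that fit called 468 higher and 88 lower, against 2469 and 981 in the main fit.

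The direction of the integrin regions, called or not, leaned towards the lung at some loci only. The mean was above that of LN IL-4+ cells in 93 of 166 regions in lung IL-4+ and 94 in lung IFN-gamma+ cells. In that order, it was higher in 17 and 24 of 26 at Itga1 and 15 and 12 of 19 at Itga4. The counts were 11 and 13 of 15 at Itgae and 18 and 16 of 21 at Itgav. At Itgb1 they were 11 and 11 of 24, at Itgb2 12 and 11 of 25, and at Itgal 2 and 2 of 25. At Itgb7 they were 7 and 5 of 11. Neighbouring regions of a locus were counted separately. No library of the populations overlapped, with lung IL-4+ above LN IL-4+, in 39 of 166 regions (23.5%), against 13.6% of all regions, and with lung IL-4+ below in 11 (6.63%), against 14.3%. For lung IFN-gamma+ against LN IL-4+ cells the counts were 61 higher (36.7%, against 26.5%) and 32 lower (19.3%, against 27.2%). Between lung IL-4+ and lung IFN-gamma+ cells they were 32 higher (19.3%, against 19.4%) and 31 lower (18.7%, against 21.2%), close to the background in both directions. The median log2 difference over the 166 regions was 0.12, 0.08 and -0.04 in the 3 comparisons, beside -0.03, -0.03 and -0.01 over all regions.

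**Figure D1:**
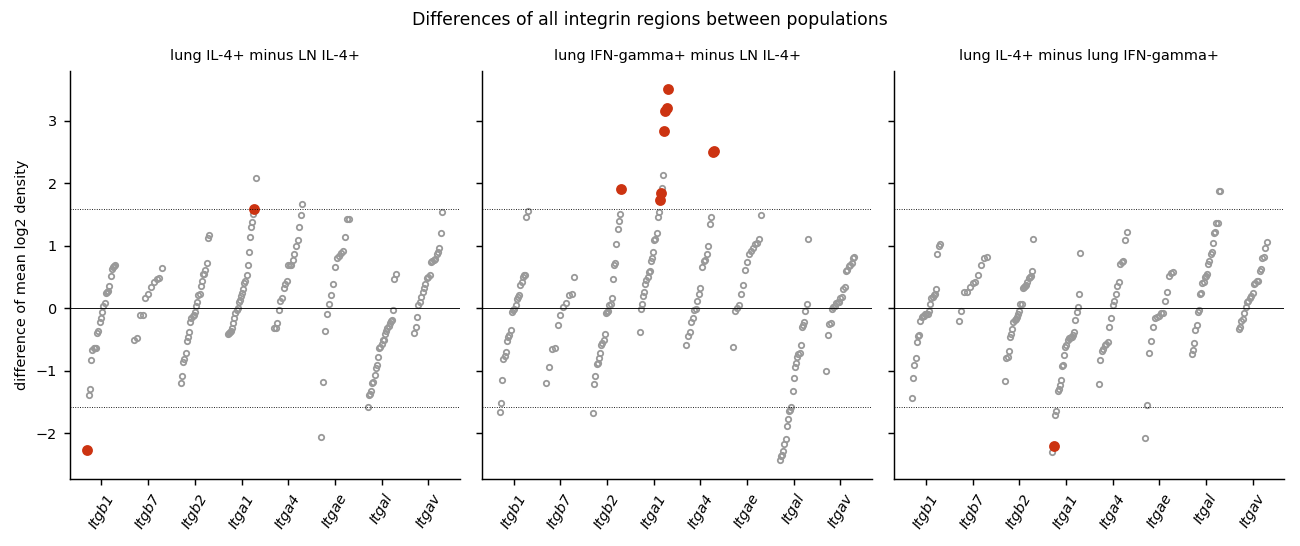
Difference of mean log2 density (y axis) for each of the 166 integrin regions, sorted within a gene, in the 3 comparisons; filled red points are called regions and dotted lines mark a 3-fold difference. The 9 calls of lung IFN-gamma+ against LN IL-4+ cells lie at Itga1, Itga4 and Itgb2, while Itgal has the lowest differences there without a call.

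Summed over loci, limma called 0 of the 8 genes at an adjusted p below 0.05 in lung IL-4+ against LN IL-4+ cells, where 1.08% of 16998 protein-coding loci were called. It called 1, Itga1, in lung IFN-gamma+ against LN IL-4+ cells, where 2.16% were called, and 0 between the lung populations, where 0.0529% were called. With limma's p left unadjusted, 3, 2 and 1 of the 8 passed, where 2366, 2772 and 2535 of the 16998 loci did. Voom on rebuilt counts called 0, 1 and 1 of the 8. Over all loci voom called 89 higher and 25 lower, 542 and 368, and 43 and 54 in the 3 comparisons. Exact two-sided permutation tests of single loci cannot go below 0.1 for 3 against 2 libraries or 0.333 for 2 against 2, and their lowest value adjusted over genes and comparisons was 0.48.

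**Figure D2:**
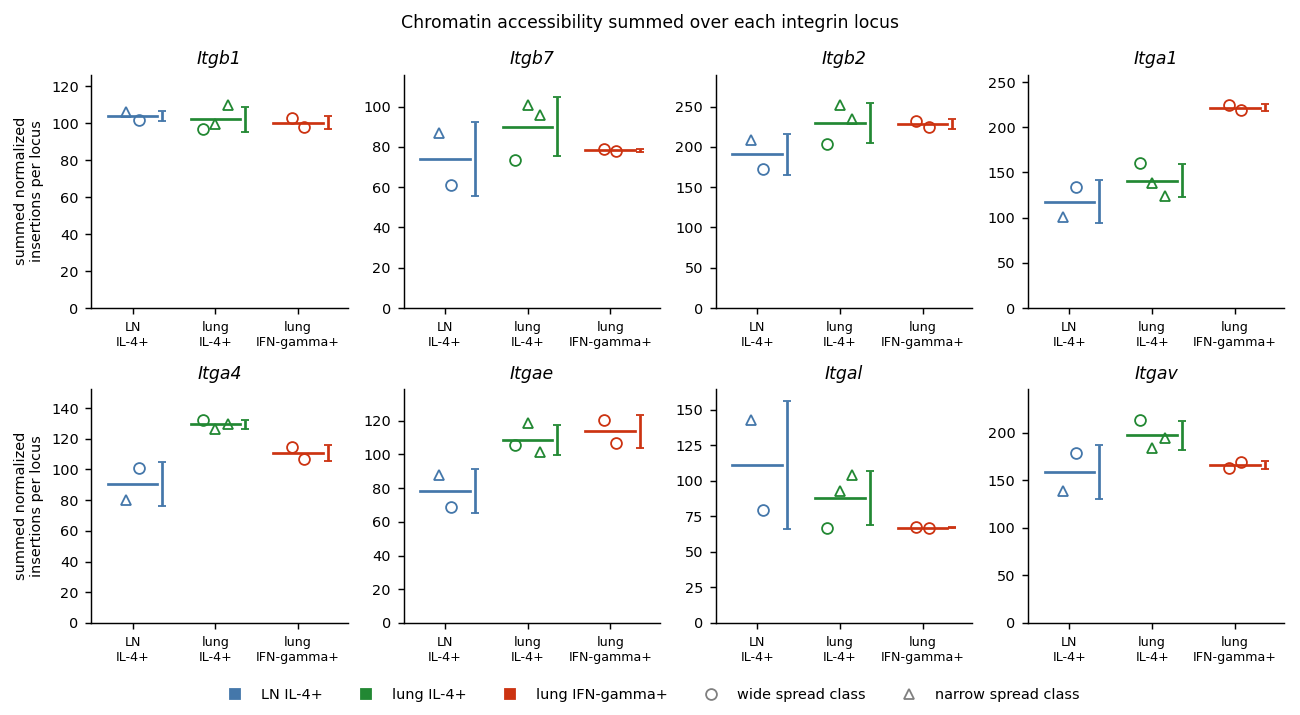
Summed normalized insertions (y axis, from 0) at each of the 8 integrin loci in the 7 libraries; circles are libraries of the wide and triangles of the narrow class, horizontal bars are population means and whiskers the SD. Both lung IFN-gamma+ libraries lie above all others at Itga1, the 3 lung IL-4+ libraries lie above all others at Itga4, and Itgb1 is nearly level.

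Per kb of region, the loci were ordered differently in each population. In LN IL-4+ cells Itgav was highest with a mean density of 8.89 ± 1.60 (SD, n = 2), and only Itgae and Itgb1, next to each other in the order, did not overlap between libraries. In lung IL-4+ cells Itgav was again highest at 11.0 ± 0.849 (SD, n = 3), and only the step from Itga4 to Itgal was free of overlap. In lung IFN-gamma+ cells Itga1 was highest at 13.6 ± 0.254 (SD, n = 2), apart from Itgb2 at 10.5 ± 0.268, and Itgal was lowest at 4.87 ± 0.0333. Neither Itgb2 and Itgae nor Itgae and Itgav could be separated there. The Itga1 locus counts a region at the promoter of another gene, Pelo, which held 26.5% of its sum in these cells. The lead of Itga1 over Itgb2 rests on that region, and the Itgae locus likewise counts the promoter of another gene, Haspin. Itgb1 was between 5.49 and 5.69 in all 3 populations.

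Itgb1 (ENSMUSG00000025809.15, chr8:128685654-128733200, + strand, GRCm38) encodes the shared β1 chain. Its locus sum was 105.9 and 101.9 in LN IL-4+, 96.7, 99.5 and 109.9 in lung IL-4+, and 102.6 and 97.8 in lung IFN-gamma+ cells. The populations overlapped in every comparison. The log2 difference of lung IL-4+ from LN IL-4+ cells was -0.03, with a 95% interval of -0.28 to 0.22, and that of lung IFN-gamma+ cells was -0.05 (-0.33 to 0.22). The promoter region, which also holds the highest density of the locus and 41.2% to 43.0% of its sum, had log2 densities of 3.84 to 4.00 in the 7 libraries.

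A single region beyond the end of Itgb1 fell in lung IL-4+ cells. It lies at chr8:128737397-128737797, 51.9 kb from the Itgb1 start, inside the neighbouring gene Ccdc7a, so the window rule and not an annotation ties it to Itgb1. Its log2 density was 2.36 and 2.05 in LN IL-4+, 0.12, -0.31 and 0.01 in lung IL-4+, and 1.11 and 1.00 in lung IFN-gamma+ cells. The LN libraries were highest and the lung IL-4+ libraries lowest, with no overlap. The change from LN to lung IL-4+ cells was -2.27 ± 0.52 (SE) on the log2 scale, with an adjusted p of 0.0482 by limma. Within the wide class it was -1.93, and within the narrow class -2.51. The region held 9 to 83 rebuilt insertions per library and stayed below the density of 5 taken as accessible in every population, and the call was lost in 13 of 15 alternatives, among them leaving out any 1 of the 7 libraries. Its central 300 bases (chr8:128737448-128737747, + strand) are printed because it was the only integrin region called lower than in LN IL-4+ cells, and they hold none of the 8 motifs searched.
Itgb1, downstream window: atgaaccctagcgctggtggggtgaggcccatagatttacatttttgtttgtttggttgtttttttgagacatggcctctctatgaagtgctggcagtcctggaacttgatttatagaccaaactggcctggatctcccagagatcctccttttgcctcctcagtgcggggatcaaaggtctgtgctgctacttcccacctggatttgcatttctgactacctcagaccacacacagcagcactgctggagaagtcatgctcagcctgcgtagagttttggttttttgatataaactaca

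The motifs were consensus letters searched on both strands in the central 300 bases of every region, and matches are in capitals in each printed window. The Runx letters were AACCACA, those of T-box factors AGGTGTGA, of GATA factors AGATAA, of bZIP factors TGANTCA and of NFAT TGGAAAA. Those of KLF factors were CCACACCC, of ETS factors AGGAAGT and of SMAD factors CAGACA. The shares of all 113820 windows with a match were 11.0%, 1.68%, 15.2%, 13.0%, 7.16%, 3.23%, 13.2% and 26.6%, in that order. Over the 166 integrin windows they were 12.7%, 1.2%, 16.3%, 13.9%, 9.04%, 3.01%, 15.1% and 27.1%, close to those of all regions. Of the 10 windows called in any comparison, 4 held the bZIP letters, 0 the T-box or KLF letters, and 1 each of the others.

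Itgb7 (ENSMUSG00000001281.10, chr15:102215995-102231944, - strand) encodes the β7 chain of the mucosal integrins. The sum over its regions was 86.8 and 60.9 in LN IL-4+, 73.5, 100.8 and 95.8 in lung IL-4+, and 78.8 and 77.8 in lung IFN-gamma+ cells. All comparisons overlapped, and the narrow libraries were higher than the wide ones within both IL-4+ populations. The region of highest density, 6.88 kb inside the gene over an exon (chr15:102224468-102225657), had log2 densities of 4.12 and 4.24 in LN IL-4+, 4.57, 4.71 and 4.66 in lung IL-4+, and 4.74 and 4.64 in lung IFN-gamma+ cells. The LN libraries were lowest without overlap. The differences were 0.46 ± 0.17 and 0.50 ± 0.19 (SE) on the log2 scale, and neither passed limma's test (adjusted p = 0.215 and 0.187). At the promoter region, log2 densities ranged from 2.80 to 3.70 with overlap between all populations.

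Itgb2 (ENSMUSG00000000290.13, chr10:77530252-77565708, + strand) encodes the β2 chain, which pairs with αL in T cells and with other α chains in myeloid cells. Summed over the locus, accessibility was 209.1 and 172.8 in LN IL-4+, 203.6, 252.1 and 234.4 in lung IL-4+, and 232.7 and 224.4 in lung IFN-gamma+ cells. The log2 difference of lung IFN-gamma+ from LN IL-4+ cells was 0.27 (95% interval -0.07 to 0.60). The only called region lay 9.55 kb before the start of the gene at chr10:77520486-77520921 and outside annotated genes, and had the highest mean density of the locus. Its share of the locus sum was 4.12% in LN IL-4+, 7.28% in lung IL-4+ and 12.4% in lung IFN-gamma+ cells.

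The log2 density of this Itgb2 region was 3.84 and 4.38 in LN IL-4+, 5.41, 5.40 and 4.87 in lung IL-4+, and 6.06 and 5.98 in lung IFN-gamma+ cells, on 172 to 3136 rebuilt insertions per library. The 3 populations were apart with no overlap, LN lowest and lung IFN-gamma+ highest. It rose by 1.91 ± 0.25 (SE) on the log2 scale, or 3.76-fold, in lung IFN-gamma+ over LN IL-4+ cells (limma, adjusted p = 0.00363), and by 1.64 within the wide class. The call was kept in 14 of 16 alternatives and lost without either lung IFN-gamma+ library (adjusted p between 0.000183 and 0.0709). In lung IL-4+ over LN IL-4+ cells the difference of 1.12 ± 0.22 passed the adjusted p (0.0277) at 2.17-fold, under the 3-fold minimum. The central window (chr10:77520554-77520853, + strand) is printed because it is the only called region at a β2 locus. The Runx letters stand at bases 93 to 99 and the bZIP letters at bases 211 to 217.
Itgb2, upstream window: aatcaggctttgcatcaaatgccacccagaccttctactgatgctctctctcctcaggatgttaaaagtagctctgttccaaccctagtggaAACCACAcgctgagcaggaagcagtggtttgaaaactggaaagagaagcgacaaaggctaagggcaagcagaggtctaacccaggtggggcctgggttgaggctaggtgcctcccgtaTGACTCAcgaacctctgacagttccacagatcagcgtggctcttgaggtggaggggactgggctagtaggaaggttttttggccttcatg

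Itga1 (ENSMUSG00000042284.10, chr13:114953096-115101964, - strand) encodes α1, the chain that makes the β1 receptor bind collagen. Its locus sum was 100.8 and 134.4 in LN IL-4+, 160.5, 138.0 and 124.0 in lung IL-4+, and 224.6 and 218.8 in lung IFN-gamma+ cells. Both lung IFN-gamma+ libraries were above all others, while the IL-4+ populations overlapped. The locus rose by 0.93 ± 0.17 (SE) on the log2 scale in lung IFN-gamma+ over LN IL-4+ cells (limma, adjusted p = 0.0405), and by 0.72 within the wide class. The call was lost in 9 of 18 alternatives. Among them were leaving out either lung IFN-gamma+ library or LN IL-4+ replicate 1, which leaves 1 library in that population. It was also lost with the replicate block (adjusted p = 0.244), which called 0 of all 16998 loci. Without lung IL-4+ replicate 2 the adjusted p was 0.117, with 30 of all loci called higher and 3 lower. Without replicate 3 it was 0.0727, with 103 and 37, against 230 and 138 in the main fit. The lowest was 0.000632, with the spread class as a covariate, where 856 loci were called higher and 1157 lower. The difference of lung IL-4+ from lung IFN-gamma+ cells was -0.66 ± 0.16, with no overlap, and did not pass (adjusted p = 0.175). Within the wide class it was -0.47.

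The region of highest density inside Itga1 is the promoter of another gene, Pelo, which lies in its intron. That region had log2 densities of 6.22 to 7.12 and made up 38.8% of the locus sum in LN IL-4+ and 26.5% in lung IFN-gamma+ cells. Without it the mean locus sum was 71.2 ± 6.97 (SD, n = 2) in LN IL-4+, 88.8 ± 8.68 (n = 3) in lung IL-4+ and 163.1 ± 6.40 (n = 2) in lung IFN-gamma+ cells, a ratio of 2.29 between the last and the first. Of the 26 Itga1 regions, 7 had a mean density of at least 5 in LN IL-4+, 11 in lung IL-4+ and 18 in lung IFN-gamma+ cells. In 24 of them the mean was higher in lung IFN-gamma+ than in LN IL-4+ cells. At a mean density of at least 5, the counts were 4, 4 and 3 at Itgb1 and 6, 6 and 4 at Itgb7, in the same order. They were 13, 12 and 13 at Itgb2 and 4, 6 and 6 at Itga4. At Itgae they were 3, 8 and 6, at Itgal 9, 5 and 4, and at Itgav 6, 9 and 8. The share of all regions at that density was not computed by population. Gm49395, an annotated gene on the same strand, overlaps Itga1 and shares its promoter region, so the 2 cannot be told apart here.

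**Figure D3:**
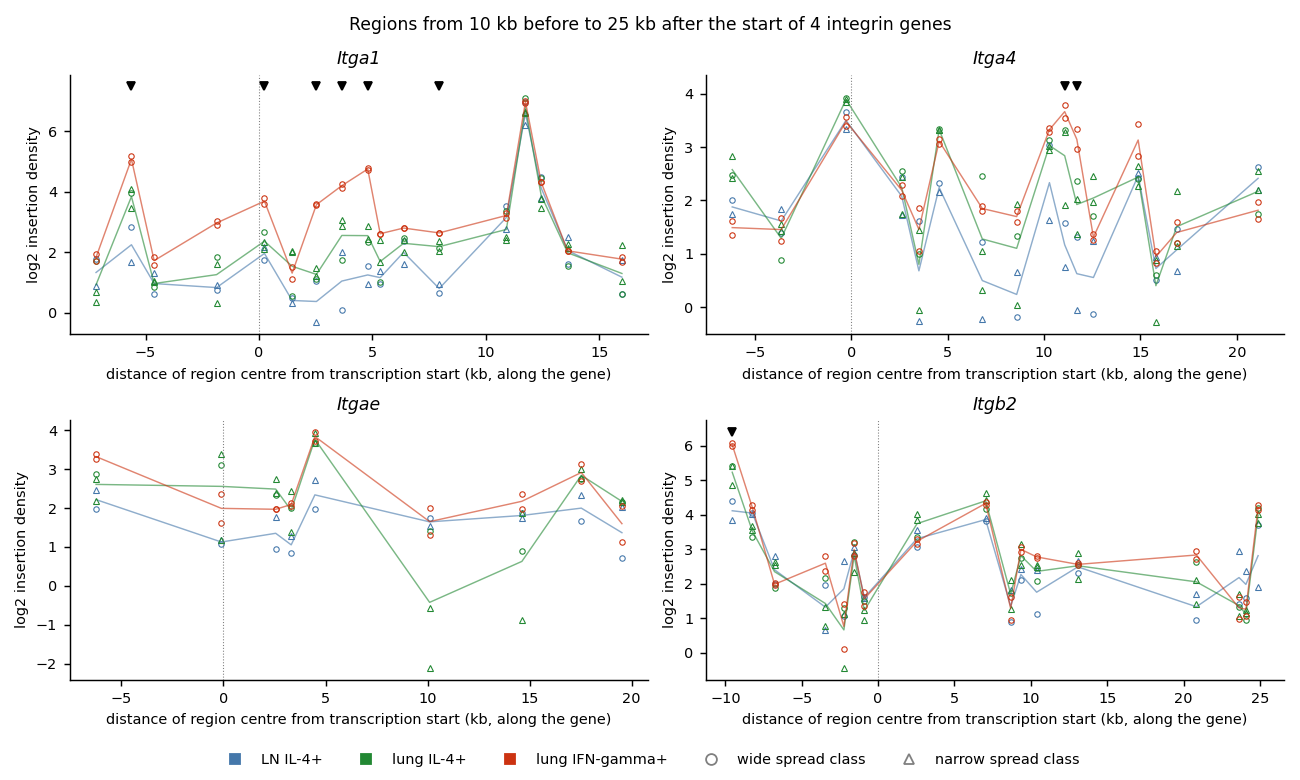
Log2 insertion density (y axis) of regions from 10 kb before to 25 kb after the start of Itga1, Itga4, Itgae and Itgb2, by distance of the region centre from the transcription start (x axis, kb). Small symbols are libraries, lines join population means and are not measured between regions, and black triangles mark called regions; the 6 of Itga1 lie between 5.62 kb before and 7.94 kb after its start.

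Between 5.62 kb before and 7.94 kb after the Itga1 start, 6 regions rose in lung IFN-gamma+ over LN IL-4+ cells. The largest of these changes was in the intronic region chr13:115096958-115097398, 4.79 kb inside the gene. Its log2 density was 0.95 and 1.55 in LN IL-4+, 2.33, 2.89 and 2.44 in lung IL-4+, and 4.78 and 4.73 in lung IFN-gamma+ cells, on 43 to 1172 rebuilt insertions. The 3 populations did not overlap. It rose by 3.51 ± 0.34 (SE) on the log2 scale, or 11.4-fold, in lung IFN-gamma+ over LN IL-4+ cells (limma, adjusted p = 0.00124), and passed in 16 of 16 alternatives, with adjusted p between 6.27e-05 and 0.0490. It was also 4.61-fold lower in lung IL-4+ than in lung IFN-gamma+ cells (log2 -2.20 ± 0.31, adjusted p = 0.0201). That second call was lost in 5 of 16 alternatives. They were the replicate block and leaving out lung IL-4+ replicate 2 or 3 or either lung IFN-gamma+ library, which leaves 1 there. Between the lung populations the replicate block called 0 of all regions. Without lung IL-4+ replicate 2, 0 were higher and 1 lower, and without replicate 3, 5 and 40, against 123 and 441 in the main fit. Within the wide class the log2 difference was 3.21 for lung IFN-gamma+ over LN IL-4+ cells. For lung IL-4+ from lung IFN-gamma+ cells it was -2.43.

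Upstream of Itga1, 5.62 kb before the start at chr13:115107306-115107866, a region rose in both lung populations over LN IL-4+ cells. Its log2 density was 1.67 and 2.83 in LN IL-4+, 3.96, 4.11 and 3.46 in lung IL-4+, and 5.18 and 4.98 in lung IFN-gamma+ cells. The 3 populations were again apart. The rise over LN IL-4+ cells, which both comparisons share, was 1.59 ± 0.34 (SE; limma, adjusted p = 0.0343) in lung IL-4+ and 2.83 ± 0.37 (adjusted p = 0.00384) in lung IFN-gamma+ cells. The first was just over 3-fold (3.02) and was lost in 11 of 16 alternatives, LN IL-4+ replicate 2 being the sole library that could be left out without losing it, and the second was lost only without either lung IFN-gamma+ library (adjusted p up to 0.0727). The difference between the lung populations was -1.24 ± 0.34 and did not pass (adjusted p = 0.147). Within the wide class the rise over LN IL-4+ cells was 1.14 in lung IL-4+ cells, which is under 3-fold. In lung IFN-gamma+ cells it was 2.255.

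The other 4 Itga1 regions called in lung IFN-gamma+ over LN IL-4+ cells were 3 intronic ones and the promoter. At 2.53 kb inside the gene (chr13:115099233-115099633), log2 densities were -0.31 and 1.05 in LN IL-4+, 1.12, 1.46 and 1.22 in lung IL-4+, and 3.56 and 3.59 in lung IFN-gamma+ cells, a rise of 3.21 ± 0.52 (adjusted p = 0.00897 by limma). At 3.65 kb (chr13:115097474-115099154) the rise was 3.16 ± 0.61 (adjusted p = 0.0189), with the LN IL-4+ libraries far apart at 2.01 and 0.08. At 7.94 kb (chr13:115093641-115094413) it was 1.84 ± 0.39 (adjusted p = 0.0288). At the promoter (chr13:115101209-115102247), log2 densities were 2.16 and 1.76 in LN IL-4+, 2.66, 2.33 and 2.11 in lung IL-4+, and 3.80 and 3.58 in lung IFN-gamma+ cells, a rise of 1.73 ± 0.34 (adjusted p = 0.0196). In all 4 the lung IFN-gamma+ libraries were above every other library, and all 4 calls were lost without either lung IFN-gamma+ library and with the replicate block. The call at 7.94 kb was also lost without lung IL-4+ replicate 2, and that at the promoter without LN IL-4+ replicate 2. Within the wide class the rises were 2.53 at 2.53 kb, 4.12 at 3.65 kb, 1.98 at 7.94 kb and 1.935 at the promoter.

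The central 300 bases of 3 Itga1 regions are printed on the + strand, which is opposite to the gene, because they had the largest changes among regions short enough to be shown by 1 window. They are chr13:115097029-115097328 at 4.79 kb, chr13:115099284-115099583 at 2.53 kb and chr13:115107437-115107736 upstream. The first holds the SMAD letters on the - strand at bases 21 to 26 and the ETS letters at bases 90 to 96. The second holds none of the 8 motifs, and the upstream one holds the bZIP letters at bases 192 to 198.
Itga1, intronic window at 4.79 kb: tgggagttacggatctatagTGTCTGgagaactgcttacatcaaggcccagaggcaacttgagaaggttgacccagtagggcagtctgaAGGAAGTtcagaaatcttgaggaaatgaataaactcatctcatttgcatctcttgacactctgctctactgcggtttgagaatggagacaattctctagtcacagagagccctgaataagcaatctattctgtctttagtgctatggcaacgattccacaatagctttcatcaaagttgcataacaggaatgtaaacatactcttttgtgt
Itga1, intronic window at 2.53 kb: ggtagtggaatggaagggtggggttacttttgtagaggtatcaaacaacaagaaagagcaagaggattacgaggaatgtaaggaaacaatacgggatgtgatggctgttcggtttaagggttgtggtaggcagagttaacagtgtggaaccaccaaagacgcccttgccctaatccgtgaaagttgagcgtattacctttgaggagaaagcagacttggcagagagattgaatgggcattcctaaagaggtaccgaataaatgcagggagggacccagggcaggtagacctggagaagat
Itga1, upstream window: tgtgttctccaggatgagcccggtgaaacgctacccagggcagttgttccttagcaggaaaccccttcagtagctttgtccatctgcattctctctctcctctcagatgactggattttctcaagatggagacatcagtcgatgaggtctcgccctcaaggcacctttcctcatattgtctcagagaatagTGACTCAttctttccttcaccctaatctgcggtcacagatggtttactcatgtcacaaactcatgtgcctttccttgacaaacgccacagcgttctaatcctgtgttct

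**Figure D4:**
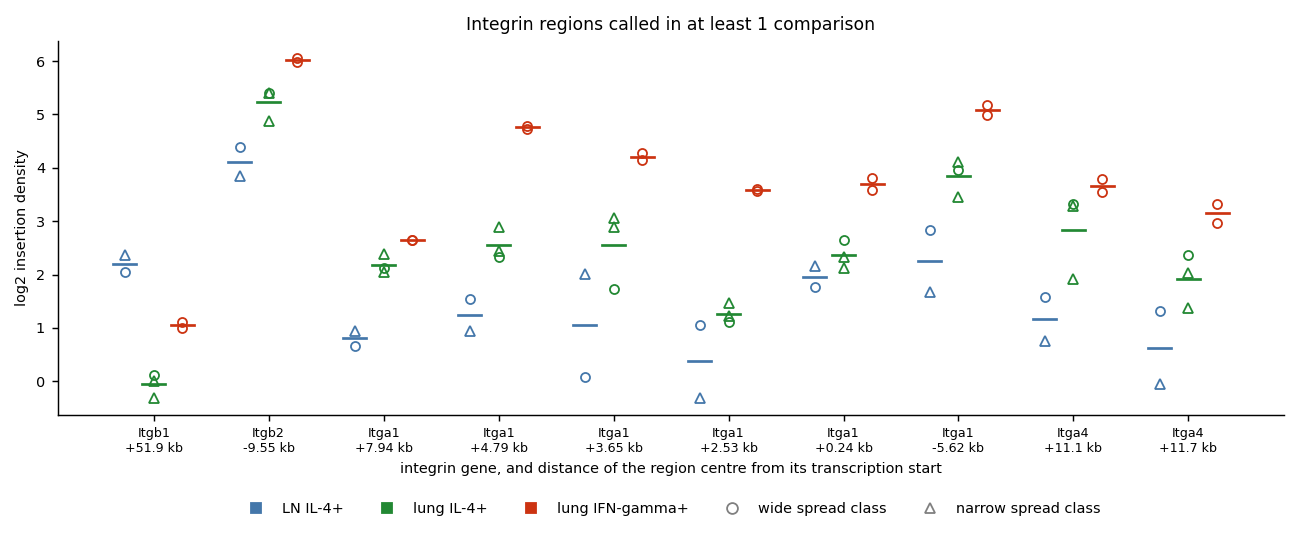
Log2 insertion density (y axis) in the 7 libraries for the 10 integrin regions called in at least 1 comparison, named by gene and distance from its start (x axis); circles are wide-class and triangles narrow-class libraries, and bars are population means. At the 9 regions of Itgb2, Itga1 and Itga4 both lung IFN-gamma+ libraries are highest, and at the Itgb1 region both LN IL-4+ libraries are.

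Itga4 (ENSMUSG00000027009.18, chr2:79255426-79333123, + strand) encodes α4, the partner of both β1 and β7. Locus sums of Itga4 were 80.4 and 100.9 in LN IL-4+, 132.3, 126.4 and 129.4 in lung IL-4+, and 114.3 and 107.1 in lung IFN-gamma+ cells. The 3 populations did not overlap, with lung IL-4+ highest. The log2 difference of lung IL-4+ from LN IL-4+ cells was 0.52 ± 0.12 (SE; 95% interval 0.23 to 0.81), with an unadjusted p of 0.0032 and an adjusted p of 0.112 by limma. With the spread class as a covariate limma's adjusted p was 0.00212, in a fit that called 985 loci higher and 1609 lower of 16998. It was 0.672 with the replicate block, which called 0 of all loci. In fits of 2 populations at a time it was 0.315, with 4 loci called higher and 1 lower. Without lung IL-4+ replicate 2 it was 0.370, with 3 called higher and 0 lower. The main fit called 113 higher and 71 lower. The difference was 0.36 without LN IL-4+ replicate 1 and 0.69 without replicate 2. It was 0.39 within the wide and 0.67 within the narrow class. Of its 19 regions, 15 had a higher mean in lung IL-4+ than in LN IL-4+ cells.

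At 11.1 kb and 11.7 kb inside Itga4, 2 neighbouring intronic regions rose in lung IFN-gamma+ over LN IL-4+ cells. At chr2:79266084-79266912, log2 densities were 0.76 and 1.58 in LN IL-4+, 3.32, 1.92 and 3.28 in lung IL-4+, and 3.78 and 3.55 in lung IFN-gamma+ cells. The rise was 2.49 ± 0.50 (SE; limma, adjusted p = 0.0219), or 5.64-fold. In lung IL-4+ cells the same region was 3.18-fold above LN IL-4+ cells and did not pass (adjusted p = 0.0841). At chr2:79266929-79267329, log2 densities were -0.06 and 1.32 in LN IL-4+, 2.37, 2.02 and 1.38 in lung IL-4+, and 2.96 and 3.33 in lung IFN-gamma+ cells. The rise was 2.51 ± 0.54 (adjusted p = 0.0300). The lung IFN-gamma+ libraries were highest at both, and LN IL-4+ replicate 1 was lowest at both. Within the wide class the 2 rises in lung IFN-gamma+ over LN IL-4+ cells were 2.09 and 1.83, in that order. Both calls were lost with the replicate block and without LN IL-4+ replicate 1 or either lung IFN-gamma+ library, and the second also without lung IL-4+ replicate 2, with adjusted p up to 0.231 and 0.302. The window of the shorter region (chr2:79266980-79267279, + strand) is printed because only that region of the 2 is short enough to be shown by 1 window. It lies outside any promoter or UTR. It holds the NFAT letters at bases 60 to 66 and the bZIP letters at bases 247 to 253.
Itga4, intronic window: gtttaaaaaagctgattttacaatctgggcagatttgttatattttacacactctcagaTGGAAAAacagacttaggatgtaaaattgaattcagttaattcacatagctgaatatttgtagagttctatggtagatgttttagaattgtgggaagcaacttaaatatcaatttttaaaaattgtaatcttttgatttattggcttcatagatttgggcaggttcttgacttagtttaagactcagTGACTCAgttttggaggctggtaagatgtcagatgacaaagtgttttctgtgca

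The Itga4 promoter region held between 45.7% and 57.0% of the locus sum. Its log2 density was 3.34 and 3.66 in LN IL-4+, 3.93, 3.90 and 3.85 in lung IL-4+, and 3.56 and 3.39 in lung IFN-gamma+ cells. Lung IL-4+ libraries were highest, and the difference from LN IL-4+ cells of 0.39 ± 0.22 did not pass (adjusted p = 0.424 by limma).

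Itgae (ENSMUSG00000005947.11, chr11:73090583-73147446, + strand) encodes αE, carried by T cells that stay in epithelia. The Itgae sum was 87.6 and 69.0 in LN IL-4+, 105.8, 118.7 and 101.6 in lung IL-4+, and 120.5 and 106.8 in lung IFN-gamma+ cells. Both LN IL-4+ libraries were below all lung libraries. The log2 differences from LN IL-4+ cells were 0.48 ± 0.14 in lung IL-4+ (95% interval 0.15 to 0.81; limma, adjusted p = 0.189) and 0.55 ± 0.16 in lung IFN-gamma+ cells (0.18 to 0.91; adjusted p = 0.139). Within the wide class they were 0.62 and 0.72. The region of highest density is the promoter of Haspin, a gene inside Itgae, and without it the mean sum was 40.5 ± 10.0 (SD, n = 2), 68.8 ± 3.57 (n = 3) and 77.1 ± 8.50 (n = 2) for lymph node, lung IL-4+ and lung IFN-gamma+ cells in turn.

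An intronic Itgae region 4.48 kb inside the gene (chr11:73094200-73095934) passed the adjusted p in both lung populations but not the 3-fold minimum. Its log2 density was 2.71 and 1.97 in LN IL-4+, 3.68, 3.94 and 3.68 in lung IL-4+, and 3.95 and 3.73 in lung IFN-gamma+ cells. It was 2.69-fold higher in lung IL-4+ (limma, adjusted p = 0.0238) and 2.83-fold higher in lung IFN-gamma+ cells (adjusted p = 0.0226), and the lung populations overlapped. The promoter region (chr11:73090243-73090726) was uneven within lung IL-4+ cells, with log2 densities of 3.11, 3.38 and 1.18, beside 1.18 and 1.07 in LN IL-4+ and 1.63 and 2.36 in lung IFN-gamma+ cells.

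Itgal (ENSMUSG00000030830.18, chr7:127296260-127335138, + strand) encodes αL of LFA-1. Locus sums of Itgal were 142.7 and 79.2 in LN IL-4+, 67.1, 92.6 and 103.9 in lung IL-4+, and 67.3 and 66.7 in lung IFN-gamma+ cells. The 3 narrow libraries held the 3 highest sums, in both IL-4+ populations. The log2 difference of lung IFN-gamma+ from LN IL-4+ cells was -0.67 ± 0.29 (95% interval -1.34 to 0.01; limma, adjusted p = 0.311), and -0.24 within the wide class. Only 2 of its 25 regions had a higher mean in lung IFN-gamma+ than in LN IL-4+ cells. One was the upstream region chr7:127289300-127289722, 6.75 kb before the start, with log2 densities of 2.73 and 2.33 in LN IL-4+, 3.07, 2.91 and 3.24 in lung IL-4+, and 3.69 and 3.59 in lung IFN-gamma+ cells. There the populations stood in the opposite order to the locus sum, without overlap, and the difference of 1.11 ± 0.28 did not pass (adjusted p = 0.0586).

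Itgav (ENSMUSG00000027087.11, chr2:83724397-83806916, + strand) encodes αV. The Itgav sum was 138.3 and 178.8 in LN IL-4+, 213.4, 183.3 and 194.7 in lung IL-4+, and 162.6 and 168.7 in lung IFN-gamma+ cells. Lung IL-4+ libraries were above all others, and LN IL-4+ and lung IFN-gamma+ cells overlapped. The log2 difference of lung IL-4+ from LN IL-4+ cells was 0.32 ± 0.14 (95% interval 0.01 to 0.64; limma, adjusted p = 0.344), and 18 of 21 regions had the higher mean in lung IL-4+ cells. An intronic region 20.6 kb inside the gene (chr2:83744315-83745693) had log2 densities of 3.03 and 3.72 in LN IL-4+, 4.38, 4.22 and 4.19 in lung IL-4+, and 3.40 and 3.53 in lung IFN-gamma+ cells. It was 1.86-fold higher in lung IL-4+ than in LN IL-4+ cells without passing the test (adjusted p = 0.0877). The promoter, with log2 densities of 4.66 to 5.04, differed by 0.10 (95% interval -0.29 to 0.49).

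Genes whose locus sums over the 7 libraries were most like those of an integrin were named from 16997 other genes by Pearson's r, as a description over 7 libraries, which differ in depth and spread class. The leading ones were Masp2 for Itgb1 (0.991), Camk2g for Itgb7 (0.989), Isca2 for Itgb2 (0.984) and Ttpa for Itga1 (0.996). For Itga4 it was Tpd52l2 (0.992), for Itgae Gfod1 (0.976), for Itgal Spire2 (0.998) and for Itgav Il9 (0.985), which encodes the cytokine IL-9.

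Of the 18 other integrin chains, with 192 regions, 6 regions (3.12%, against 1.05% of all regions) were called higher in lung IL-4+ over LN IL-4+ cells and 14 (7.29%, against 2.17%) in lung IFN-gamma+ over LN IL-4+ cells. Every region called higher in lung IL-4+ cells lay at Itgb3, except that of Itgb5, so this share rests mainly on a single locus. In lung IFN-gamma+ cells Itgb3 also held the largest number of calls, and others lay at Itga2, Itga3, Itga9, Itgam, Itgax and Itgb5. Itgb3, the β3 partner of αV, was the only chain whose locus was called in both comparisons. Its sum was 95.9 and 87.7 in LN IL-4+, 201.1, 238.0 and 241.4 in lung IL-4+, and 209.6 and 221.7 in lung IFN-gamma+ cells. All lung libraries were above both LN libraries, by 1.30 (limma, adjusted p = 0.00892) and 1.23 (adjusted p = 0.00917) on the log2 scale. Itga2, the other collagen-binding α chain next to Itga1 on the chromosome, had 124.7 and 175.0 in LN IL-4+, 264.4, 244.5 and 206.5 in lung IL-4+, and 272.4 and 265.1 in lung IFN-gamma+ cells. Its locus did not pass (adjusted p = 0.121 and 0.0612), while 3 of its 28 regions were called higher in lung IFN-gamma+ cells. Itga7 was lower in lung IFN-gamma+ than in LN IL-4+ cells (log2 -0.88, adjusted p = 0.0375).

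Of 20 genes for proteins that switch integrins on or link them to the cytoskeleton, 19 had regions. Of their 475 regions, 3 were called higher and 3 lower in lung IL-4+ over LN IL-4+ cells (0.632% each, against 1.05% and 0.695% of all regions), and 4 higher and 4 lower in lung IFN-gamma+ over LN IL-4+ cells (0.842% each, against 2.17% and 0.862%). The shares called higher were below the background, and those called lower were close to it. Only the locus of Ptk2, the focal adhesion kinase, was called. Its sum was 66.4 and 77.3 in LN IL-4+, 42.0, 32.0 and 37.5 in lung IL-4+, and 35.8 and 38.4 in lung IFN-gamma+ cells, and it was lower in both lung populations (log2 -0.96 and -0.95, adjusted p = 0.0411 and 0.0373 by limma).

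Of the markers that the sort used to leave cells out, Itgam, Itgax and Klrb1c were higher in the lung IFN-gamma+ population, while the CD8 genes were not. Itgam, which encodes CD11b, had sums of 8.19 and 11.0 in LN IL-4+, 10.9, 10.3 and 12.0 in lung IL-4+, and 30.4 and 25.8 in lung IFN-gamma+ cells (log2 1.56 over LN IL-4+, limma, adjusted p = 0.0200). Itgax, which encodes CD11c, rose by 1.76 (adjusted p = 0.0134), and Klrb1c, which encodes NK1.1, by 0.77 (adjusted p = 0.0212). The windows of Itgam and Itgax share a region called higher in the same comparison (chr7:128119757-128120477), so their rises are not separate results. The log2 difference was 0.04 at Cd8a (adjusted p = 0.971) and -0.85 at Cd8b1 (adjusted p = 0.247), which encode the CD8 chains. Of the 4 CD8 T cell and NK cell markers, all but Ncr1 had regions, and their summed level was 77.6 to 79.7 in LN IL-4+, 79.2 to 80.9 in lung IL-4+ and 119.3 to 120.4 in lung IFN-gamma+ cells. Most of that level was Klrb1c, with 67.3 and 63.9 in LN IL-4+ and 110.2 and 113.1 in lung IFN-gamma+ cells. Of the 5 myeloid markers, all but Lyz2 had regions, summing to 153.5 to 310.1, 188.2 to 298.9 and 181.0 to 201.7, of which Cd68 gave 139.2 to 294.9 over the libraries. Of the 4 B cell markers, all but Ms4a1 had regions, summing to 151.1 to 191.5, 135.6 to 148.4 and 126.0 to 134.8, with Pax5 lower in lung IFN-gamma+ than in LN IL-4+ cells (log2 -1.31, adjusted p = 0.0373). The promoter density of Pax5 reached 37.4, above those of the T cell markers. The 5 epithelial and endothelial markers summed to 234.4 to 302.5, 275.0 to 323.5 and 257.0 to 259.7, and Cdh1, which encodes the αE ligand E-cadherin, rose in both lung populations (log2 0.80 and 1.02, adjusted p = 0.0454 and 0.0209). The part of these differences in the integrin results was not tested.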

How the data were processed

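ATAC-seq was performed on 7 libraries of sorted CD4+ T cells. The authors trimmed adapters, mapped reads to GRCm38 with Bowtie2 2.3.2, marked duplicates, removed mitochondrial and blacklisted reads, called summits with MACS2 2.1.1, merged regions and normalized insertion counts with limma 3.38.3 in R 3.5.1, versions per the submitters' processing notes. The deposited values are log2 densities (insertions per kb, scaled to library size), and their sorted values nearly coincide between libraries, as after quantile normalization. Counts were rebuilt here from tied values (equal to 8 decimals) and are lower bounds.

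Here limma 3.58.1 (R 4.3.3) was fitted to the log2 values of all 113820 regions and to log2 locus sums of 16998 protein-coding genes (GENCODE M21), with 1 mean per population, eBayes with trend and Benjamini-Hochberg adjustment. No pseudocount or filter was applied. The code was checked on simulated data. Intervals are limma's 95% intervals. Sequences were read from the RefSeq GRCm38 assembly with pysam 0.24.0. Other tools were Python 3.11.15, pandas 2.3.3, numpy 2.4.6, scipy 1.17.1 and matplotlib 3.10.9.

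Members, lists, motifs and tests were chosen with earlier results of these data known. Named regions were, per gene, every called region, the promoter within 1 kb of a start, the region of highest density and that of smallest p, and genes of like pattern were the 2 with the highest r, of which the first is given. Alternatives covered the fit, normalization, pseudocount, filter, thresholds, windows and left-out libraries, and within-class values were added after seeing the data.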

Additional observations from a re-analysis of the deposited data

How the results depend on the processing

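The count of called integrin regions in lung IL-4+ against LN IL-4+ cells, 2 as reported, was 0 in fits of 2 populations at a time, with the replicate block, with median centring, at density + 1, with voom on rebuilt counts and over gene bodies alone, 1 with array weights, 4 at an adjusted p under 0.1, and 5 with the spread class as a covariate or at a 2-fold minimum. For lung IFN-gamma+ against LN IL-4+ cells, 9 as reported, it was 3 with the replicate block and 14 with voom on rebuilt counts. Between the lung populations, 1 as reported, it was 0 with the replicate block, 2 with the spread class, 3 in fits of 2 populations at a time, at density + 1 or at an adjusted p under 0.1, 4 with voom on rebuilt counts and 9 with array weights. Leaving out each library in turn gave 0 to 3, 1 to 12 and 0 to 2 regions. Called loci, 0, 1 and 0 as reported, were 5, 4 and 2 with the spread class, 0 in lung IFN-gamma+ against LN IL-4+ cells in fits of 2 populations at a time, with the replicate block, with median centring and over accessible regions only, 6 between the lung populations with array weights, whose fit over loci did not converge fully, and 1 there with voom. Leaving out libraries gave 0 to 1, 0 to 3 and 0 to 0 loci. Over all 16998 loci, the fit with the spread class called 985 higher and 1609 lower, 856 and 1157, and 254 and 231 in the 3 comparisons. Array weights called 5158 loci higher and 6755 lower between the lung populations, and 3121 and 3440 of 113820 regions. The larger integrin counts of these fits thus came with many more calls among all features. The replicate block called 0 of 113820 regions in either comparison with lung IL-4+ cells. It called 0 of 16998 loci in all 3 comparisons. Fits of 2 populations at a time called 0 loci in lung IFN-gamma+ against LN IL-4+ cells. Integrin counts of 0 there were thus shared by all features. In lung IL-4+ against LN IL-4+ cells, such fits called 639 regions higher and 425 lower. Median centring called 988 and 698 there, and density + 1 called 729 and 717. The cause of the differences between fits was not tested.

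No called difference changed sign in any alternative run. Same-numbered libraries did not deviate together: deviations from the population means of same-numbered IL-4+ libraries from lymph node and lung correlated at -0.54 and -0.30, and those of the other pairs between -0.02 and 0.06. Replicates 1 and 2 of these IL-4+ populations are of opposite spread class, so this check cannot tell whether a number marks the same mouse. Depth, at 9 to 83 rebuilt insertions in the Itgb1 region, limits the weakest values, and 2 or 3 libraries a population limit all of them.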
